A study of Mus musculus with 93 samples.

Results

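The 8 genes described here, Park7, Pink1, Lrrk2, Vps35, Atp13a2, Uchl1, Fbxo7 and Synj2bp, were taken by gene symbol from both tables of normalised expression. All 8 were found in each table, among 24528 genes. The study asked how the pyrethroid insecticide deltamethrin (DM), given before and after birth, acts with a heterozygous nonsense mutation of Chd8, a chromatin remodelling gene linked to autism, in mouse cerebral cortex. C57BL/6J wild-type (WT) dams were bred with Chd8V986*/+ males and ate oil or DM (3 mg/kg) in peanut butter at intervals of 3 days from conception. Poly(A) RNA of cortex from 1 hemisphere per mouse was sequenced in 93 libraries, each from 1 animal.

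At postnatal day (PND) 5 there were 12 oil-exposed WT, 12 DM-exposed WT, 10 oil-exposed Chd8V986*/+ and 10 DM-exposed Chd8V986*/+ mice of both sexes from 13 litters, with dosing of the dam up to that day. At 12 months there were 9 WT and 9 Chd8V986*/+ males after oil and 10 WT and 10 Chd8V986*/+ males after DM, with dosing up to PND 22. Each of the 19 litters of that age gave 1 mouse of each genotype. At 18 months, 6 WT and 5 Chd8V986*/+ males had no exposure, and the 6 WT males came from 5 litters. All mutants carried 1 mutated copy in every cell of the body, and all litters had a WT mother, so the oil-exposed WT mice are the controls of both the genotype and the DM comparisons.

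Parkinsonism runs in families through changes in genes that mostly serve mitochondria, lysosomes and the sorting of membrane proteins. Pink1 is a kinase that marks damaged mitochondria for removal, and Park7 encodes DJ-1, a protein of the response to oxidative stress. Lrrk2 is a kinase of Rab GTPases, Vps35 is the core of the retromer that recycles proteins from endosomes, and Atp13a2 is a lysosomal P5-type ATPase that exports polyamines. Fbxo7 is an F-box subunit of SCF ubiquitin ligases, and Uchl1 is an abundant neuronal ubiquitin hydrolase whose place among the parkinsonism genes is disputed. Synj2bp is an outer mitochondrial membrane protein that binds synaptojanin 2 and holds Pink1 mRNA at mitochondria. It is not an established gene of inherited parkinsonism, so the name of the group does not fully apply to it. The disease affects midbrain dopamine neurons, which lie outside the tissue sampled. Of 6 markers of those neurons, 1 had a mean at 18 months within 0.5 of the lowest value in that table, 7.204. This was the transcription factor Pitx3, at 7.38. The dopamine transporter Slc6a3 stood at 7.705 and the vesicular transporter Slc18a2 at 7.774. The synthesis enzymes Th (8.427) and Ddc (8.779) and the transcription factor Nr4a2 (10.88) were higher.

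The promoters of Atp13a2, which differed with age, genotype and DM, and of Pink1 and Lrrk2, the genes with the largest rise with age, are shown so that the results below can be set beside their sequence. They are the 250 bases before the RefSeq start (GRCm38.p6), printed 5′ to 3′ on the strand of the gene, for Atp13a2 at chr4:140986671-140986920 (plus strand), Pink1 at chr4:138326297-138326546 (minus strand) and Lrrk2 at chr15:91672974-91673223 (plus strand). Capitals mark the GC box GGGCGG, or its reverse complement, which was searched on both strands with the E-box CACGTG and the TATA box TATAAA.

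Atp13a2: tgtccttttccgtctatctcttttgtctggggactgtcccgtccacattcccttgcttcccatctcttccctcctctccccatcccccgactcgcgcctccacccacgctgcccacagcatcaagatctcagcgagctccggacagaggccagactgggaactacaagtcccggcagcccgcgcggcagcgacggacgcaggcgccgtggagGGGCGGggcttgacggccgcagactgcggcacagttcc
Pink1: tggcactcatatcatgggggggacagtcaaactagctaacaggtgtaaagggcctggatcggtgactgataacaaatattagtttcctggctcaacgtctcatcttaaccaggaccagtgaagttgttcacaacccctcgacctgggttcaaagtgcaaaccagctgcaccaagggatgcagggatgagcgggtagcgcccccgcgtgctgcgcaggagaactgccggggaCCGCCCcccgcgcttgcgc
Lrrk2: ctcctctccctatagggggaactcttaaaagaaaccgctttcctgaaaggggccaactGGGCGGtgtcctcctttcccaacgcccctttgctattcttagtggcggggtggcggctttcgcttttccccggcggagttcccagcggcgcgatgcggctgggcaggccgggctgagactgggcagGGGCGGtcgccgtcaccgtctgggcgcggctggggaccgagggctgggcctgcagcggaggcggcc

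Of the 8 genes, 7 had a promoter entry, and Vps35 had none. Atp13a2 held 1 GC box that began 38 bases before the start, Pink1 1 on the reverse strand at 19 bases, and Lrrk2 a pair at 192 and 66 bases. Park7 also held 1, at 109 bases. A GC box was in 32.7% of 32851 promoters of the same length, an E-box in 6.02% and a TATA box in 12.4%. None of the 7 genes had the E-box or the TATA box letters in this window. In GENCODE M21 (GRCm38), Atp13a2 spans chr4:140986873-141007330 on the plus strand, and Pink1 spans chr4:138313409-138326307 and Park7 chr4:150897133-150914437 on the minus strand of the same chromosome. Vps35 lies on chr8:85260392-85299802 and shares 171 bases with Orc6 on the other strand, Uchl1 shares 408 bases with the antisense transcript Uchl1os, and Fbxo7 shares 358 bases with the antisense transcript A230060F14Rik. Synj2bp lies almost wholly inside Gm20498, a protein-coding model on the same strand, with 34965 shared bases. The libraries were stranded, but the strand setting used in counting is not given in the sources used here, so the values of these genes may hold reads of their neighbours.

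Levels are in log2 units of the variance-stabilizing transformation (VST) and differences are on the same scale, which understates changes of lowly expressed genes. The deposited values of PND 5 and 12 months had been adjusted by the authors for batch, sex, dissector and litter. Levels given below for those ages are adjusted levels, that is, the deposited values with these 4 terms fitted beside the 8 groups of age, genotype and exposure, since the deposited adjustment had not kept the groups apart. Calls rest on limma, with p-values adjusted by the Benjamini-Hochberg method over every gene tested and a threshold of 0.05. Genes with a mean of at least 6 were tested, 12152 at PND 5 and 12 months and 18657 at 18 months. Lrrk2, with a mean deposited value of 4.78, was under this minimum in the first table. It is given there from a fit of all 20160 genes that vary. In the 18 month table, normalised apart, Lrrk2 had a mean of 11.38, above 87% of genes that vary. Levels in the first table hold the authors' adjustment, so they serve to compare groups for the same gene and are not abundances.

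Chd8 itself was lower in the mutants in all 5 genotype comparisons, with log2 differences of −0.69 to −0.48 (limma, largest adjusted p = 0.00321). The 7 markers of excitatory cortical neurons had means of 9.81 to 16.3 at 18 months, and the 5 choroid plexus markers stood at 7.44 to 8.41. The 6 striatal markers stood at 9.27 to 12.09, within the range of the excitatory markers at its upper end and below it at its lower end. Read counts per library are not in the tables used here, and the study gives only a median depth over all samples. The depth of each library is thus unknown, and precision was judged from the mice alone.

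The largest differences among the 8 genes were with age. From PND 5 to 12 months in oil-exposed WT mice, Lrrk2, Pink1, Fbxo7 and Synj2bp rose and Atp13a2, Uchl1, Vps35 and Park7 fell. Of the 7 genes tested, 7 were called, 3 higher and 4 lower, where 81.1% of all genes were called (32.5% higher and 48.6% lower). Lrrk2 was called too in the fit without a minimum, in which 65% of genes were. A share of called genes this large in the background leaves the size and direction of each difference, not the call, as the information.

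Lrrk2 had the largest rise, 2.76 (SE 0.11, 6.78-fold, adjusted p = 1.15e-36). Its adjusted levels were 3.16, 3.52 and 3.87 (lowest, median and highest) in the 12 oil-exposed WT mice of PND 5 and 6.02, 6.28 and 6.51 in the 9 of 12 months. Pink1 rose by 1.55 (SE 0.08, 2.94-fold, adjusted p = 2.07e-28), from 8.09, 8.20 and 8.46 to 9.61, 9.83 and 10.07. The groups were far apart for both genes. Fbxo7 rose by 0.94 (SE 0.06, 1.92-fold), from 6.27, 6.40 and 6.59 to 7.25, 7.37 and 7.45. Synj2bp rose by 0.79 (SE 0.07, 1.73-fold), from 8.03, 8.30 and 8.59 to 8.99, 9.11 and 9.23. Over all 44 mice of PND 5 and 38 of 12 months, whatever their genotype and exposure, the adjusted levels of Lrrk2, Pink1, Fbxo7 and Synj2bp at 12 months all lay above those at PND 5. The share of all genes without overlap between the ages was not worked out.

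Atp13a2 fell by 0.80 with age (SE 0.11, adjusted p = 8.53e-10), from 12.46, 12.73 and 12.91 at PND 5 to 11.58, 11.95 and 12.24 at 12 months in oil-exposed WT mice. These 2 groups did not overlap, while over all exposures and genotypes 36 of the 38 mice of 12 months lay below every mouse of PND 5. Uchl1 fell by 0.51 (SE 0.06, adjusted p = 2.16e-11), from 14.17, 14.33 and 14.55 to 13.65, 13.76 and 13.98, and its ages did not overlap over all 82 mice. For Atp13a2 and Uchl1 too, the share of all genes separated in this way was not worked out. Vps35 fell by 0.21 (SE 0.05, adjusted p = 4.43e-05), with 13.04, 13.15 and 13.27 at PND 5 and 12.83, 12.94 and 13.07 at 12 months, where the groups overlapped. Park7 fell by 0.15 (SE 0.06, adjusted p = 0.0209) with overlapping groups, 10.82, 11.04 and 11.25 against 10.61, 10.90 and 11.01.

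**Figure D1:**
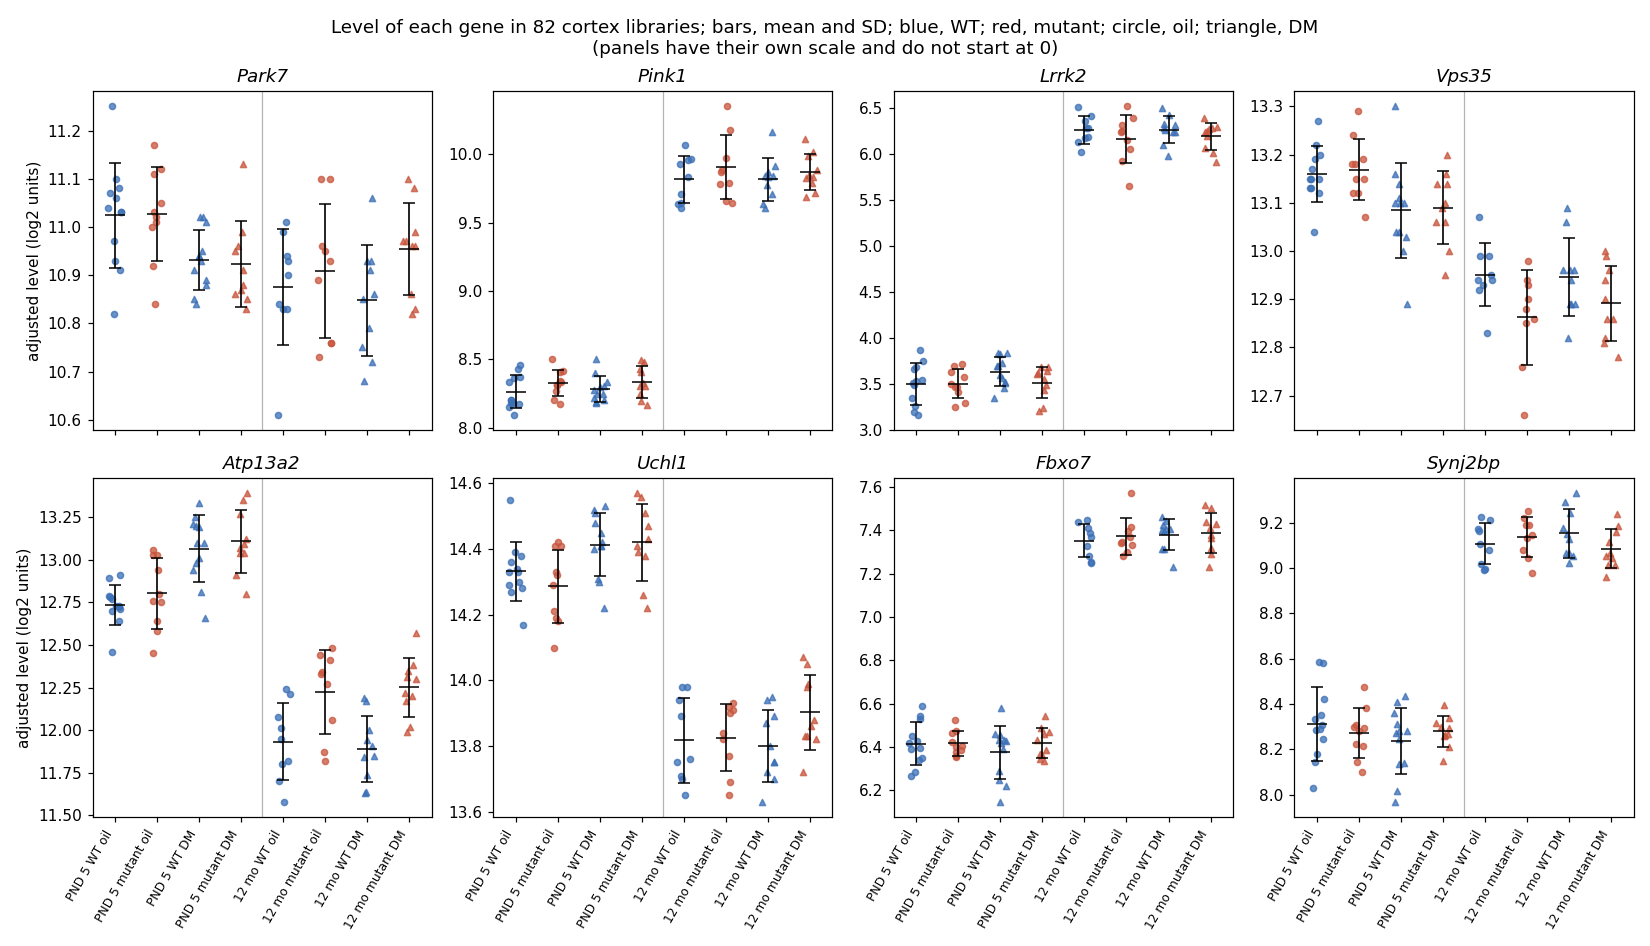
Adjusted expression (VST, log2 units) of each gene in every mouse of PND 5 and 12 months, by genotype and exposure, with the group mean as a bar. Lrrk2 sits at 3.16 to 3.87 at PND 5 and at 5.65 to 6.51 at 12 months, whereas Vps35 and Park7 overlap between the ages.

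The age differences depend on the terms of the model more than the others do, because all mice of 12 months were males dissected by 1 person. In males of that dissector alone, a restriction chosen after seeing the data, 7 genes were again called, with 1.52 for Pink1, 2.73 for Lrrk2 and −0.92 for Atp13a2. On the deposited values with groups as the only term the differences were smaller, 1.05 for Lrrk2 (adjusted p = 0.0106), 0.65 for Pink1 (adjusted p = 0.00966) and −0.33 for Atp13a2 (adjusted p = 0.0274). The deposited values of Lrrk2 overlapped between the ages there, 2.91 to 5.64 in oil-exposed WT mice of PND 5 and 5.09 to 5.87 at 12 months. So did those of Pink1, 7.82 to 9.58 and 8.92 to 9.78, and Fbxo7, 6.23 to 7.26 and 6.82 to 7.26. Synj2bp overlapped too, at 8.13 to 9.17 and 8.72 to 9.04, as did Atp13a2 and Uchl1. The smaller declines were less secure. Vps35 was no longer called with groups only (−0.05, adjusted p = 0.362) or without batch 3 (−0.03, adjusted p = 0.776). Park7 was lost with groups only (adjusted p = 0.528), when each library was centred on its median (−0.06, adjusted p = 0.355), relative to genes of like GC content and length (−0.02, adjusted p = 0.558), without batch 2, 3 or 4 (adjusted p = 0.0706, 0.109 and 0.0522) and without 1 WT oil mouse, replicate 5 (−0.11, adjusted p = 0.0769). Median centring moved all age differences by 0.09.

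The pathways of these genes differed with age in both directions. Their counts stand beside the 32.5% of all genes tested that were called higher and the 48.6% called lower. Among 37 tested genes of PINK1 import and mitophagy, 16 rose and 12 fell. They were led by the autophagy genes Gabarapl1 (1.41) and Sqstm1 (0.80) and the mitophagy receptor Bnip3 (1.16), all higher at 12 months. Of 15 lysosomal and P5-type ATPase genes 10 rose and 3 fell, and the list's median was 0.60 against −0.135 over all genes tested. The cathepsins Ctsb (1.15) and Ctsd (1.09) and the lysosomal membrane protein Lamp2 (1.05) rose, in the opposite direction to Atp13a2. Of 26 Rab substrates and partners of LRRK2, 10 rose and 15 fell, among them Rab10 (−1.12), Rab3d (−1.87) and the 14-3-3 protein Ywhae (−0.94), all lower while Lrrk2 was higher. Of 19 retromer, sorting nexin and WASH complex genes, 6 rose and 9 fell, with 0.98 for Snx1 and −0.98 for the retromer regulator Tbc1d5. Of 8 SYNJ2BP partners 2 rose and 4 fell, and Synj2, the synaptojanin that gives Synj2bp its name, rose by 2.28. Of 7 SCF genes and FBXO7 partners 5 fell and none rose, with −2.24 for the cell cycle kinase Cdk6, while Fbxo7 rose. Uchl3, a relative of Uchl1 in the list of 10 ubiquitin genes, fell by 1.39, and 2 of that list rose and 5 fell. Of 21 genes of oxidative defence linked to DJ-1, 12 rose and 8 fell, with 0.86 for Gclc, which makes glutathione, and −1.08 for catalase (Cat). Of 20 other inherited parkinsonism genes 10 rose and 5 fell, among them the metal transporters Slc39a14 (1.21), which was higher, and Slc30a10, which was lower, and the synaptic phosphatase Synj1 (1.28).

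Cell type markers also differed with age, and their part in these differences was not tested. The myelin marker Cnp was 2.38 higher at 12 months and the microglial markers Csf1r and Cx3cr1 were 1.81 and 1.44 higher, while 5 of 5 oligodendrocyte precursor markers were lower. Mean levels of the 3 microglial markers tested ran from 6.47 to 7.11 over the mice of PND 5 and from 8.13 to 8.45 over those of 12 months. In bulk tissue, fewer cells of a type and less RNA per cell cannot be told apart.

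Atp13a2 was also the gene of the 8 that differed most between genotypes at 12 months, and it was higher in Chd8V986*/+ mice. Over both exposures the difference was 0.33 (SE 0.06, 95% interval 0.20 to 0.45, 1.25-fold, adjusted p = 0.000227). With Vps35, which was lower, 2 of the 7 genes tested were called, where 20.8% of all genes were called in this comparison (8.95% higher and 11.8% lower), so the count itself was near the background.

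Adjusted levels of Atp13a2 after oil were 11.58, 11.95 and 12.24 (lowest, median and highest) in the 9 WT mice and 11.82, 12.33 and 12.48 in the 9 mutants. After DM they were 11.63, 11.88 and 12.19 in the 10 WT mice and 11.99, 12.26 and 12.57 in the 10 mutants. The genotypes overlapped within each exposure, and the mutant medians exceeded the highest WT level. After DM the difference of 0.36 (SE 0.09, 1.28-fold, adjusted p = 0.00931) was called, 1 of 7 genes where 5.36% of all genes were called. After oil it was 0.29 (SE 0.09, 1.22-fold, adjusted p = 0.0656), so that 0 of 7 genes were called where 2.73% of all genes were, and 2 of the 7, Vps35 and Atp13a2, had an unadjusted p under 0.05. With litter as a block the oil difference was called as well (adjusted p = 0.016), in a fit that called 21.5% of all genes. The effect of genotype after DM minus that after oil was 0.07 (SE 0.13, 95% interval −0.19 to 0.32, adjusted p = 1), so no difference between the exposures was detected.

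Within litters the mutant exceeded its WT brother in 16 of 19 litters, 7 of 9 after oil and 9 of 10 after DM. The batches of RNA processing were not alike. All 4 litters of batch 1 were higher in the mutant, by 0.31 to 0.78, and so were all 4 of batch 2, by 0.32 to 0.55. In batch 3 the mutant was higher in 4 of 6 litters, with a range of −0.34 to 0.59, and in batch 4 in 4 of 5, with a range of −0.17 to 0.62. The 2 negative litters of batch 3, with −0.26 and −0.34, were both oil-exposed. Without batch 3 the difference over both exposures was 0.44 (adjusted p = 6.34e-05) and that after oil 0.53 (adjusted p = 0.00266). After DM the call was lost without batch 2 (0.34, adjusted p = 0.0533) or batch 3 (0.34, adjusted p = 0.0518), and with groups only (adjusted p = 0.285). The difference over both exposures was called in 13 of 13 alternative fits, with 0.20 to 0.44, and after leaving out each of 38 mice in turn, with 0.30 to 0.35.

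**Figure D2:**
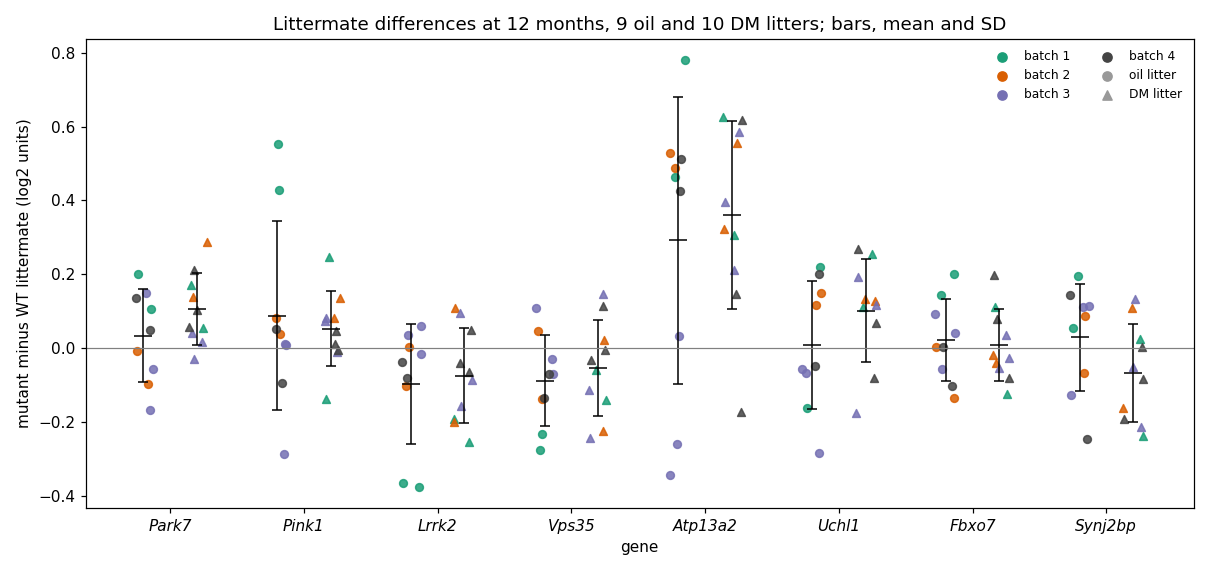
Mutant minus WT difference (log2 units) within each of the 19 litters of 12 months, by gene, batch and exposure. Atp13a2 is above 0 in 16 of 19 litters, with the 2 oil litters of batch 3 at −0.26 and −0.34 among the 3 below, and Pink1 is highest in the 2 oil litters of batch 1, at 0.43 and 0.55.

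Base composition moved with the genotype difference across genes. Atp13a2 transcripts had 62.4% GC, above 98.5% of 11696 genes with a value, 96.2% of those tested. Over these genes, which share the same libraries, GC content and the genotype difference over both exposures had a Spearman correlation of 0.46. Among 194 genes within 1 percentage point of the GC content of Atp13a2, the median difference was 0.11, with quartiles of 0.05 and 0.18, and 2.06% of them were as high as Atp13a2, compared with 0.197% of all genes. Relative to genes of like GC content and transcript length in 100 bins, an alternative chosen after seeing the data, the difference of Atp13a2 was 0.20 (SE 0.04, adjusted p = 0.000305, and 3.1e-05 with the litter block). In that scale it was 0.23 after DM and 0.18 after oil. Astrocyte markers also differed by genotype. Of 7 tested, 4 were higher in mutants and none lower, led by Aldh1l1 (0.21), Fgfr3 (0.21) and the filament protein Gfap (0.23), and the mean of the list ran from 10.35 to 10.71 in WT and from 10.47 to 11.16 in mutants after oil, and from 10.42 to 10.77 and from 10.52 to 10.86 after DM. The haemoglobin gene Hba-a2 was 0.37 higher, with 1 of 5 blood markers called. The part of these cell types in the Atp13a2 difference was not tested.

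**Figure D3:**
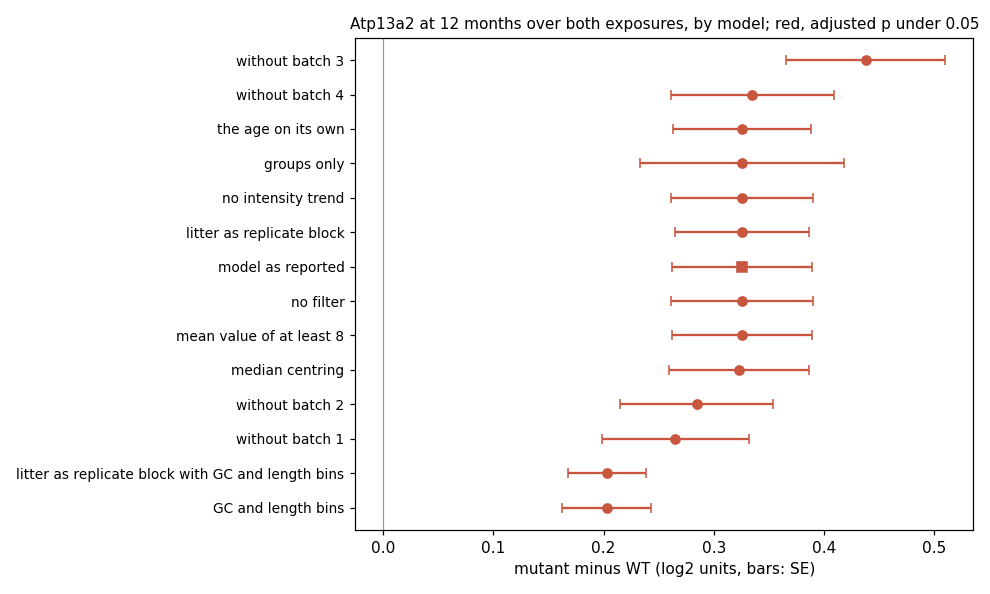
Atp13a2 genotype difference over both exposures at 12 months (log2 units, with bars of the SE) under the models fitted. Fits that left out single mice are not drawn. The difference runs from 0.20 with GC and length bins to 0.44 without batch 3. The DM difference in WT mice at PND 5, which ran from 0.16 to 0.44 over its alternative fits, is not drawn.

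Vps35 was lower in mutants at 12 months over both exposures, with a difference of −0.07 (SE 0.03, 95% interval −0.12 to −0.02, adjusted p = 0.0496). Its levels after oil were 12.83, 12.94 and 13.07 in WT and 12.66, 12.88 and 12.98 in mutants, and after DM 12.82, 12.95 and 13.09 in WT and 12.78, 12.88 and 13.00 in mutants. The groups overlapped almost entirely, and the mutant was lower in 14 of 19 litters. This call was at the threshold. It held in 5 of 13 alternatives and after leaving out 16 of 38 mice, was 0.0178 as an adjusted p with the litter block, and was lost without batch 1 (−0.04, adjusted p = 0.336) and relative to genes of like GC content and length (−0.01, adjusted p = 0.752). Vps35 transcripts had 42.3% GC, above 8.32% of genes.

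Park7 was 0.07 higher in mutants over both exposures (SE 0.04, adjusted p = 0.139) and 0.11 higher after DM (SE 0.05, adjusted p = 0.179). Both were called with the litter block (adjusted p = 0.016 and 0.019), which called 39.8% and 20.3% of all genes. The difference over both exposures was called without batch 3 too (0.11, adjusted p = 0.0307). The mutant was higher in 9 of 10 litters after DM and in 5 of 9 after oil, and levels overlapped, at 10.68, 10.85 and 11.06 in WT and 10.82, 10.97 and 11.10 in mutants after DM. Pink1 differed by 0.07 (SE 0.05, 95% interval −0.03 to 0.17, adjusted p = 0.291). After oil its litters of batch 1 stood apart, with mutant excesses of 0.55 and 0.43 where the other 7 litters ran from −0.29 to 0.08. The same litters had the lowest Lrrk2 differences, −0.36 and −0.37 against −0.10 to 0.06 in the others, and the lowest Vps35 differences, −0.23 and −0.28. Lrrk2 over both exposures was at −0.09 (SE 0.06, 95% interval −0.21 to 0.04, adjusted p = 0.4 in the fit without a minimum). Uchl1 (0.06, 95% interval −0.02 to 0.13), Fbxo7 (0.01, −0.05 to 0.08) and Synj2bp (−0.02, −0.10 to 0.06) gave no call, and their intervals exclude differences above 0.13 in either direction.

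**Figure D4:**
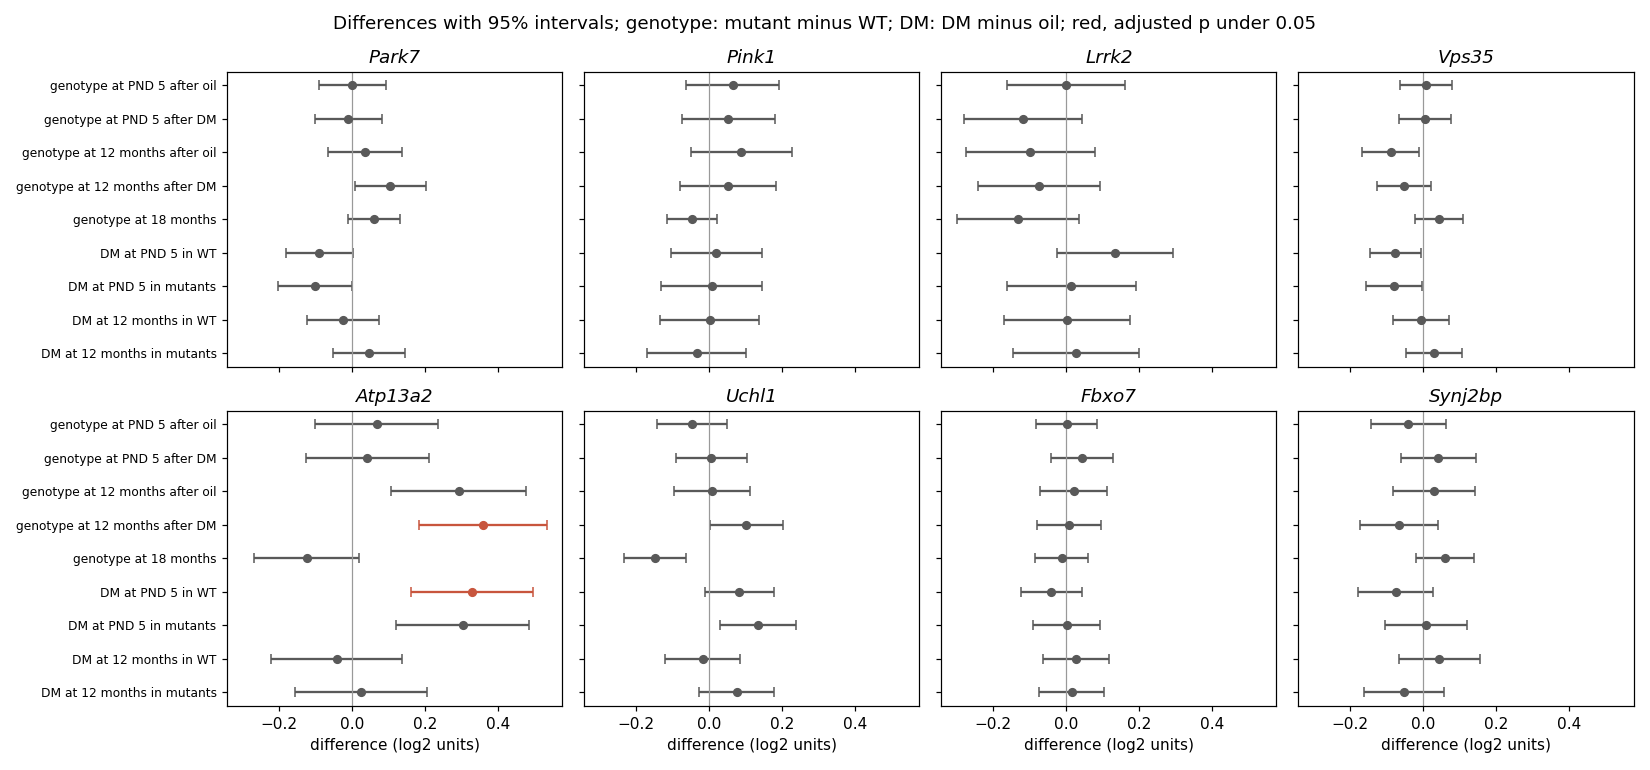
Differences of the 8 genes (log2 units, with 95% intervals) for genotype and DM comparisons at each age, with called genes marked. For genotype at 12 months Atp13a2 is at 0.29 after oil, which was not called, and at 0.36 after DM. For DM at PND 5 it is at 0.33 in WT mice and at 0.30 in mutants, where it was not called. The other genes lie between −0.15 and 0.13.

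In the pathways of these genes at 12 months, called members were mostly of small size, and their counts stand beside the 8.95% of all genes that were called higher and the 11.8% called lower. The lists were not tested against that background. The lysosomal and P5-type ATPase list had 6 of 15 genes lower in mutants and none higher, with a median of −0.07 against −0.01 over all genes tested. Ctsb (−0.10), the galactosylceramidase Galc (−0.10) and Scarb2 (−0.09), the receptor that carries glucocerebrosidase to lysosomes, were lower while Atp13a2 was higher. Relative to genes of like GC content and length, 3 of the 15 were lower and none higher, where 7.43% of all genes were lower. Of 26 LRRK2 partners 6 were lower and 2 higher, led by the 14-3-3 genes Ywhaz (−0.155), Ywhab (−0.09) and Ywhae (−0.09), and with the GC and length reference 5 were lower and 1 higher. Of 37 PINK1 and mitophagy genes 4 were higher and 5 lower, among them the import receptors Tomm20 (−0.14) and Tomm70a (−0.11). Of 20 other parkinsonism genes 6 were higher and 2 lower, with Ptrhd1 at 0.19, the mitochondrial polymerase Polg at 0.10 and the clathrin uncoating factor Dnajc6 at −0.12. Of 21 oxidative defence genes 3 were higher and 2 lower, with 0.27 for Gpx4, which detoxifies lipid peroxides. The retromer list had 1 higher (Washc3, 0.22) and 2 lower (Washc5, −0.125, and Snx2, −0.06) of 19. The ubiquitin list had 2 lower of 10, among them the proteasome-bound deubiquitinase Usp14 (−0.125), the SYNJ2BP list 1 higher (Gipc1, 0.195) and 2 lower (Acvr2a, −0.14, and Acvr2b, −0.11) of 8, and the SCF list none of 7.

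At PND 5 none of the 8 genes was called between genotypes. Called were 0 of 7 after oil, where 0.658% of all genes were called, and 0 of 7 after DM, where 0.247% were, and none of the 7 had an unadjusted p under 0.05 in either. Atp13a2 was at 12.46, 12.73 and 12.91 in WT and 12.45, 12.78 and 13.06 in mutants after oil, almost the same range. Its difference was 0.07 (SE 0.08, 95% interval −0.10 to 0.24) after oil and 0.04 (SE 0.08, 95% interval −0.13 to 0.21) after DM. The genotype difference of Atp13a2 at 12 months minus that at PND 5 was 0.22 after oil (SE 0.12, 95% interval −0.03 to 0.47, adjusted p = 0.555). The ages were thus not shown to differ, and 0 of 7 genes were called in that test, with 0.0165% of all genes called and none of the 7 at an unadjusted p under 0.05. Among littermates of the same sex, Pink1 was higher in the mutant in 9 of 10 pairs after oil, by a mean of 0.083 (SD 0.061, range −0.01 to 0.19), and in 5 of 9 pairs after DM. The difference of Pink1 after oil was 0.06 (SE 0.06, adjusted p = 1) and with litter as a block 0.07 (SE 0.04, adjusted p = 0.542). Differences of the other 6 genes tested, Pink1 included, ran from −0.05 to 0.06 at PND 5, and Lrrk2 was at 0.00 after oil and −0.12 after DM (SE 0.08, adjusted p = 0.992). In the pathway lists 1 gene was called at this age, Rab3d, which was lower in mutants after DM (−0.17).

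DM exposure went with a higher level of Atp13a2 at PND 5. In WT mice the difference was 0.33 (SE 0.08, 95% interval 0.16 to 0.49, adjusted p = 0.00896), and Atp13a2 was the 1 gene of 7 called, where 10.1% of all genes were called. The 12 oil-exposed mice were at 12.46, 12.73 and 12.91 and the 12 DM-exposed mice at 12.66, 13.10 and 13.33, with overlap. In Chd8V986*/+ mice the difference was 0.30 (SE 0.09, 95% interval 0.12 to 0.49, adjusted p = 0.0534), so that 0 of 7 genes were called, where 2.59% of all genes were. Atp13a2, Park7, Vps35 and Uchl1 had an unadjusted p under 0.05 there. The 10 oil-exposed mutants were at 12.45, 12.78 and 13.06 and the 10 DM-exposed mutants at 12.80, 13.08 and 13.39.

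The exposure was given to the dam, so the litter is its unit. Averaged by litter, the adjusted levels of Atp13a2 had means of 12.65 to 12.88 in the 6 oil litters and of 12.90 to 13.28 in the 7 DM litters, without overlap. The share of all genes whose litter means did not overlap was not worked out. With litter as a random effect the difference in WT mice was 0.33 (SE 0.11, adjusted p = 0.144), and this fit called 0 genes of all tested in either genotype, with 1864 genes in WT mice and 1544 in mutants at an unadjusted p under 0.05. Relative to genes of like GC content and length it was 0.16 (SE 0.05, adjusted p = 0.0756), and GC content and the DM difference had a Spearman correlation of 0.50 over genes. Among the 194 genes within 1 percentage point of the GC content of Atp13a2, 6.7% were as high. The call was also lost without batch 3 (0.28, adjusted p = 0.104), in males alone (0.35, adjusted p = 0.152) and in females alone (0.27, adjusted p = 0.28). Inhibitory neuron markers were called higher after DM too, 2 of 5 in WT mice and 3 of 5 in mutants. Among them were the GABA transporter Slc32a1 (0.38 in WT) and somatostatin (Sst, 0.26 in WT). Of 6 striatal markers 1 was called higher in WT mice and 2 in mutants, led by Adora2a (0.44 in WT and 0.74 in mutants). These counts stand beside the 10.1% of all genes called in WT mice and the 2.59% called in mutants. The mean of the inhibitory neuron markers ran from 9.18 to 9.68 in oil-exposed and from 9.48 to 9.78 in DM-exposed WT mice, and from 9.19 to 9.58 and from 9.47 to 9.78 in mutants. The mean of the striatal markers ran from 7.43 to 8.27 in oil-exposed and from 7.69 to 8.26 in DM-exposed WT mice, and from 7.44 to 8.07 and from 7.89 to 8.41 in mutants. In WT mice markers of other cell types were called higher as well. These were 2 of 7 for excitatory neurons, 1 of 7 for astrocytes, 1 of 3 for microglia and 1 of 5 for oligodendrocyte precursors. Endothelial markers had 1 of 6 called higher in WT mice. The part of any of these cell types in the DM difference of Atp13a2 was not tested.

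Among the other genes at PND 5, differences after DM in WT mice were −0.09 for Park7 (adjusted p = 0.201), −0.08 for Vps35 (adjusted p = 0.155), −0.08 for Synj2bp (adjusted p = 0.359), 0.08 for Uchl1 (adjusted p = 0.271), −0.04 for Fbxo7 (adjusted p = 0.58) and 0.02 for Pink1 (adjusted p = 0.873). In mutants Park7 was at −0.10, Vps35 at −0.08 and Uchl1 at 0.13 (adjusted p = 0.256, 0.244 and 0.13). Lrrk2, from the fit without a minimum, was at 0.13 in WT mice (SE 0.08, adjusted p = 0.367) and 0.01 in mutants. In the lists after DM in WT mice, the dynactin gene Dctn1 (0.29) and Lrp10 (0.14) of the parkinsonism list rose, as did Atp13a5 (0.20), a relative of Atp13a2, and the sphingomyelinase Smpd1 (0.11). Lower were Scarb2 (−0.14), the mitochondrial genes Vdac3 (−0.12), Mfn1 (−0.13) and Rhot1 (−0.10), the retromer subunit Vps29 (−0.15), and the SCF subunits Skp1a (−0.205) and Rbx1 (−0.14). Dctn1 (0.26) and Scarb2 (−0.145) were called in mutants as well. In these fits 10.1% of all genes were called in WT mice and 2.59% in mutants, and none of these list calls held with litter as a random effect, which called 0 genes in either genotype, with 1864 and 1544 at an unadjusted p under 0.05.

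At 12 months, long after exposure ended, DM-exposed mice did not differ detectably from oil-exposed mice in any of the 8 genes. In WT and in mutants 0 of 7 were called and none had an unadjusted p under 0.05, where 0% of all genes were called and 394 and 353 of 12152 had an unadjusted p under 0.05. Atp13a2 was at −0.04 in WT (95% interval −0.22 to 0.14) and 0.03 in mutants (−0.15 to 0.21). The upper bound in WT lay below the difference of 0.33 seen at PND 5, which had its own interval of 0.16 to 0.49. The DM difference at 12 months minus that at PND 5 in WT mice, a test chosen after seeing the data, was −0.37 (SE 0.12, adjusted p = 0.0793). It was not called, where 2.38% of all genes were, so the ages were not shown to differ. The differences of the 7 other genes ran from −0.05 to 0.08, Lrrk2 included.

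At 18 months none of the 8 genes was called between untreated mutants and WT, where 0.107% of 18657 genes were called, and 1, Uchl1, had an unadjusted p under 0.05. Uchl1 was at 12.44, 12.44, 12.53, 12.54 and 12.57 in the 5 mutants and at 12.55, 12.66 and 12.77 (lowest, median and highest) in the 6 WT mice, so that 4 mutants lay below every WT mouse. How many of all genes were separated to that extent was not worked out. The difference of Uchl1 was −0.15 (SE 0.04, 95% interval −0.23 to −0.06, adjusted p = 0.172), and the mutant was lower in 4 of 4 litters that held both genotypes. Atp13a2 was at 10.20, 10.21, 10.26, 10.50 and 10.54 in mutants and at 10.29, 10.48 and 10.62 in WT, with overlap. Its difference was −0.12 (SE 0.07, 95% interval −0.27 to 0.02, adjusted p = 0.513), and within litters it was −0.41, 0.01, 0.03 and −0.12. The upper bound of 0.02 lay below the 0.33 seen at 12 months over both exposures, which had its own interval of 0.20 to 0.45. The tables were normalised apart and the older mice had no exposure, so the ages were not tested against each other. Lrrk2 was at 11.04, 11.40 and 11.54 (lowest, median and highest) in mutants and 11.30, 11.46 and 11.56 in WT, a difference of −0.13 (SE 0.08, adjusted p = 0.552). The other 5 genes differed by −0.05 to 0.06. On this table's scale, which does not correct for transcript length, Pink1 (mean 12.93), Uchl1 (12.59) and Vps35 (12.55) were above 95.6% or more of genes that vary, and Fbxo7 (9.79) above 63.6%.

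After the 8 groups and the technical terms were fitted, the genes still varied together from mouse to mouse. Over the 82 libraries, Atp13a2 and Uchl1 had a Pearson correlation of 0.76, Park7 and Pink1 of 0.69, Park7 and Uchl1 of 0.63, and Pink1 and Lrrk2 of −0.75. Fbxo7 and Synj2bp had correlations of −0.32 to 0.34 with the other genes and of 0.05 with each other. The genes most like Atp13a2 in these residuals were Scaf1 (0.94), Fkbp8 (0.93) and Mif (0.92), and they were also higher in mutants at 12 months over both exposures, by 0.22, 0.25 and 0.31 (adjusted p = 0.00523, 0.00312 and 0.00476). Pink1 was most like Ppp1r9b (0.94), Cenpb (0.94) and Cst3 (0.93), Uchl1 most like Stmn3 (0.93), Vps35 most like Itfg1 (0.90), Lrrk2 most like Lyst (0.86) and Park7 most like Dynlrb1 (0.83). For Fbxo7 and Synj2bp the highest values were lower, 0.525 with Fuca2 and 0.46 with Intu. These correlations share libraries, depth and base composition, and are given as a description.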

How the data were processed

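RNA of mouse cortex was measured in 93 libraries, 82 of PND 5 and 12 months and 11 of 18 months, whose groups, litters, batches and dissectors came from the sample labels and the study's sample table. Replicates are separate mice. The authors used cutadapt 1.12, STAR 2.5.2b on mm10 and Salmon, and deposited log2 values from the variance-stabilizing transformation of DESeq2, with technical terms removed. The deposited values ran from −15.03 to 31.81 in the first table, whose slopes on sex, dissector, batch number and litter number were 0, and from 7.204 to 16.72 in the 18 month table, which had a slope of 0 on the rank of the litter. Read counts were not used here, so depth per library is unknown.

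The 8 groups were fitted in limma 3.58.1 (R 4.3.3, with statmod 1.5.0 for the random effect) with batch, sex, dissector and litter number, and at 18 months genotype with the rank of the litter, with eBayes and an intensity trend. Removing such terms beforehand left group differences unchanged in this model, which was checked on simulated data. Genes that vary with a mean of at least 6 were tested, with Benjamini-Hochberg adjustment over all of them. Littermates' residuals had a median correlation of 0.266 over 74 pairs, with 73% of pairs above 0.1, and −0.0403 over 1575 other pairs of the same age. The litter was therefore tried as a replicate block, a factor for genotype and a random effect (consensus correlation 0.391) for DM and age. The other alternatives were the minimum, median centring, groups only, no intensity trend, each age alone, each sex alone, and leaving out each batch and mouse. Added after seeing the data were the DM by age test, males of dissector 2, and genes of like GC content and length (20 GC bins with 5 length bins each) as the reference. All 8 genes, Chd8, at most 3 called genes of each list with the smallest adjusted p, and the 3 genes most correlated with each member were named, except that 2 called list genes are not reported here. The members and lists were chosen with earlier results of these data known. Promoters and motifs came from RefSeq (GRCm38.p6), gene positions from GENCODE M21. Plots were made in matplotlib 3.10.9 under Python 3.11.15.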

Additional observations from a re-analysis of the deposited data

Results flagged for a closer look

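Of 64 groups of a gene and a condition at PND 5, 12 and 18 months that were small enough to be tested with Dixon's criterion at 95%, 2 held a mouse far from the rest, and chance gives about 1 in 20. Park7 stood at 10.61 in the WT oil mouse of replicate 5 at 12 months, where the other 8 ran from 10.83 to 11.01 (gap over range 0.542). Fbxo7 stood at 7.572 in the Chd8V986*/+ oil mouse of replicate 2 at 12 months, where the other 8 ran from 7.283 to 7.415 (gap over range 0.543).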

How the results depend on the processing

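Over 3788 values of single genes under alternatives, 3718 kept their side of the threshold, 47 were no longer called and 23 became called. None called in either fit changed sign, while 239 of the 3718, which passed in neither fit, did. Genotype at 12 months over both exposures gave 2 called genes, and 1 without a minimum, with groups only, with no intensity trend, without batch 1, 2 or 4, and with the GC and length reference with or without the litter block. Leaving out each mouse gave 1 to 2. With the litter as a replicate block and without batch 3 it gave 3. After DM, 1 became 0 with groups only and without batch 2 or 3, and 2 with the block. After oil, 0 became 1 with the block, with the block and the GC and length reference and with that age alone, 2 without batch 3, and 0 to 1 without each mouse. DM at PND 5 in WT mice gave 1, which became 0 with the litter random effect, without batch 3, in each sex alone and with the GC and length reference, and 2 with that age alone (Atp13a2, and Pink1 at 0.09, adjusted p = 0.0378). DM in mutants at PND 5 gave 0, which became 2 with that age alone (Atp13a2 at 0.31, adjusted p = 0.015, and Uchl1 at 0.16, adjusted p = 0.0264), and 0 to 1 without each mouse. The block changed no call other than those of Atp13a2 and Park7 given above. The causes were not tested.

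Counts over all genes moved more. They ran over the alternatives from 1 to 262 (main 80) and 0 to 83 (30) for genotype at PND 5 after oil and DM, from 7 to 2611 (332), 42 to 2470 (651) and 416 to 4842 (2526) for genotype at 12 months after oil, after DM and over both, from 0 to 1519 (1222) and 0 to 1566 (315) for DM at PND 5 in WT and mutants, from 5887 to 13102 (9852) for age, from 0 to 130 (2) for age by genotype, and from 0 to 75 (20) at 18 months. Precision was judged from the mice and litters alone, and whether read depth per library limits it is not known.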
